A study of Mus musculus with 12 samples.

Results

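Granins and prohormone convertases are the proteins of dense-core secretory granules, here described in the adrenal glands of mice that carry a transgene with Ftz-F1, the gene Nr5a1 for the nuclear receptor SF-1. The group was defined by symbol and holds 9 genes, which are the granins Chga, Chgb, Scg2, Scg3 and Scg5, the convertases Pcsk1 and Pcsk2, the convertase inhibitor gene Pcsk1n and the granule protein gene Resp18. On the array 8 of the 9 had a probe, 1 each, among 17881 named genes that were tested. No probe bears the symbol Pcsk2 in the platform table, and Pcsk2 was not analysed here. Of the 8 probes, 6 gave measurable ratios and 2, those of Chga and Chgb, lay at the upper limit of the scanner.

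A transgenic mouse and its wild-type littermate, matched in sex and age, shared each 2-colour array, and each comparison was hybridised on 2 arrays with the dyes exchanged. At 4 months of age there were 3 pairs, whose transgenic mice, numbered 1, 3 and 5, had 2 transgene copies. At 10 days of age there were 3 pairs, whose transgenic mice, numbered 11, 13 and 15, had 1 copy. Pairs 5 and 15 were female and the other 4 pairs male. All transgenic mice came from a single line, each pair has its own mouse numbers, their samples are marked YAC in the labels, and the labels name no promoter, strain or pooling. Age and copy number change together between the groups and cannot be told apart.

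In chromaffin cells of the adrenal medulla, granins help to form the granules that store catecholamines and peptides. Inside those granules the convertases cut peptide precursors at pairs of basic residues. Pcsk1 encodes PC1/3 and Pcsk2 encodes PC2. Scg5 encodes 7B2, a chaperone and inhibitor of PC2, and Pcsk1n encodes proSAAS, an inhibitor of PC1/3. Several of these genes are known to be regulated through cyclic AMP response elements in their promoters.

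The promoters are shown because some of these genes share such an element, the 8 letters TGACGTCA, at a similar place. Promoters of all 9 genes were found in the RefSeq table of build GRCm38.p6, each covering 250 bases before and 50 bases after a transcription start. TGACGTCA, which reads the same on both strands, was present in 3 of the 9, those of Chgb, Scg2 and Pcsk1, and in 1.79% of all 32851 promoters of the table. It began 72, 68 and 78 bases before the start. For Pcsk1 the start used lies inside the gene, which is listed from 75089420, before the window that begins at 75089607. The similar place of the element in Pcsk1 depends on that start. The looser word TGACGNNA includes TGACGTCA and was found on either strand in 5 of the 9 and in 6.61% of all promoters. It added Chga (TGACGTAA, 44 bases before the start) and Scg3 (TGACGCCA, 30 bases before the start). The half-element TGACG, contained in both words, was found on either strand in 7 of 9 promoters and 20.8% of all. Pcsk1n and Resp18 held none of these. The SF-1 half-site AAGGTCA was in 0 of the 9 windows and 4.72% of all promoters on either strand, which says only that these letters are not in these windows. A match of letters is no evidence of binding.

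The whole windows of Scg5 and Pcsk1 are printed because these genes passed the test described further on, and 60 bases around the element are printed for Scg2, Chga and Chgb. Capitals mark TGACG on either strand in Scg5, TGACGNNA in Chga and TGACGTCA in the others.
Scg5 (GRCm38.p6 chr2:113829042-113829341, minus strand): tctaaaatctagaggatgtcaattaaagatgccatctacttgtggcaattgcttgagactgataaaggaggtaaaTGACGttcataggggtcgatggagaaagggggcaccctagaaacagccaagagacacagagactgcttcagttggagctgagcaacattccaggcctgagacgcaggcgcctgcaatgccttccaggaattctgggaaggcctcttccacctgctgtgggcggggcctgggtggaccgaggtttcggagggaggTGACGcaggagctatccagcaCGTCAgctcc
Pcsk1 (GRCm38.p6 chr13:75089607-75089906, plus strand): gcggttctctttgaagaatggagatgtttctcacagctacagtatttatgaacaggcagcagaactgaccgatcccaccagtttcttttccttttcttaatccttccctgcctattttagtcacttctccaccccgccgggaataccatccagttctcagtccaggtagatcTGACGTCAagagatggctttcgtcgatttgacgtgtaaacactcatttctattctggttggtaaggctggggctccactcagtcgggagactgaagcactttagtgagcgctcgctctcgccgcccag
Scg2 (GRCm38.p6 chr1:79440061-79440120, minus strand): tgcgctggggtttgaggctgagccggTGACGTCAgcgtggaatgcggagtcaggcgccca
Chga (GRCm38.p6 chr12:102554871-102554930, plus strand): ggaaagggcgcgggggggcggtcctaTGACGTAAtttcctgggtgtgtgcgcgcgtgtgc
Chgb (GRCm38.p6 chr2:132781544-132781603, plus strand): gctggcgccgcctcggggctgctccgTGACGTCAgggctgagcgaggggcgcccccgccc

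Ratios are given on the log2 scale after correction of the dye trend of each array, as the mean of the 2 arrays of a pair. Their sign is that of the deposited values. The labels do not say which genotype is the numerator, so a positive ratio has no settled direction in the mice. Nr5a1 itself, the gene on the transgene, was at -0.45, 0.12 and -0.22 in pairs 1, 3 and 5 of the 4-month group and at -0.57, -0.65 and -0.79 in pairs 11, 13 and 15 of the 10-day group. It was negative in 5 of 6 pairs, with a mean of -0.43 (SE 0.09) and an adjusted p of 0.104 in limma over all features, so it did not pass. The 2 arrays differed in sign in pair 1, at 0.07 with the transgenic sample in Cy3 and -0.97 with it in Cy5. They also differed in pair 3, at 0.43 and -0.20. In whole glands, a change in the number of chromaffin cells and a change of RNA per cell cannot be told apart.

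Over all 6 pairs, the 6 measurable members had positive mean ratios. Scg5 and Pcsk1 passed the test across all features, at 1.73-fold and 1.59-fold, while Pcsk1n, Resp18, Scg2 and Scg3 did not. The other 2, Chga and Chgb, gave no usable ratio. Passing with a positive ratio was rare over the array, at 0.0511% of 21512 features, and at 0.00465% for negative ratios. Neither gene passed once any 1 of the 6 pairs was left out, with values of 0.74 to 0.84 for Scg5 and 0.61 to 0.70 for Pcsk1, and adjusted p-values in limma of 0.0582 (without pair 11) to 0.249 (without pair 13) and of 0.0807 (without pair 5) to 0.27 (without pair 13). The members were chosen with earlier results of these data known, so their count is a description. The median of the 6 members was 0.59, against -0.01 for all features. Of the 6 measurable members, 4 (Scg5, Pcsk1, Pcsk1n and Resp18) were positive in 6 of 6 pairs, against 5.67% of the 20355 features measured in all pairs. At an unadjusted p under 0.05, 4 of the 6 were positive, against 7.51% of features. On 12 of 12 arrays 3 of them (Scg5, Pcsk1 and Resp18) were positive after the dye-trend correction, against 1.28% of features. As deposited, Pcsk1 was at -0.04 and Resp18 at -0.16 on the array of pair 15 with the transgenic sample in Cy3.

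**Figure D1:**
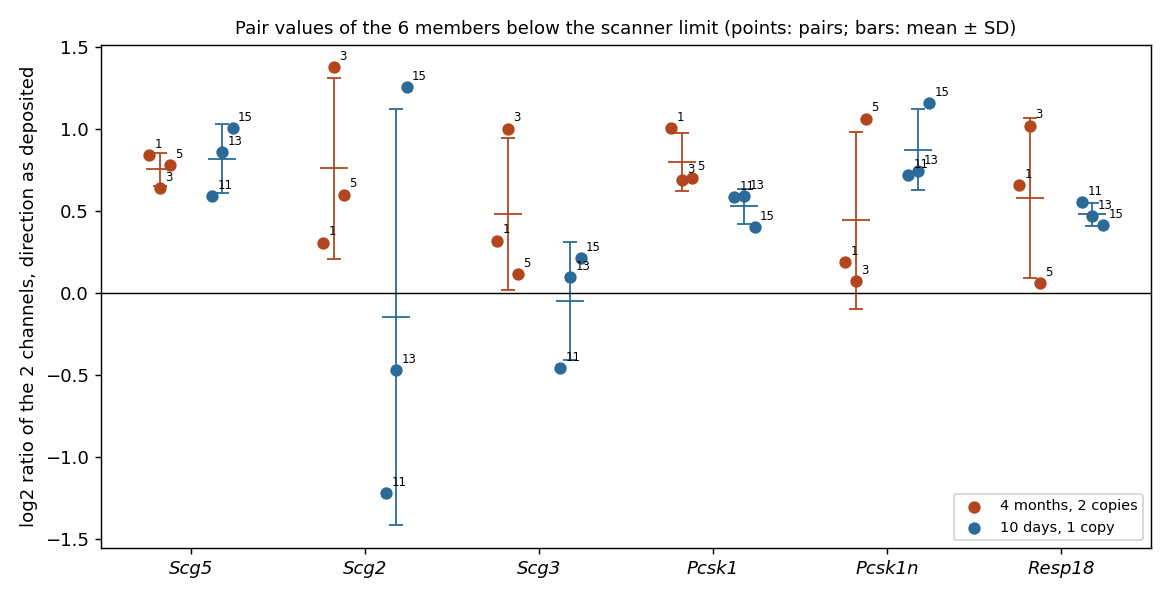
Log2 ratio of the 2 channels, direction as deposited, for the 6 members below the scanner limit. Each point is 1 pair, labelled with its number, in the 4-month group with 2 copies (red) and the 10-day group with 1 copy (blue), and bars are mean ± SD of 3 pairs. Scg5 and Pcsk1 lie between 0.40 and 1.01 in every pair, while Scg2 spans -1.22 to 1.38.

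Among the granins, Scg5 was the steadiest. It was at 0.84, 0.64 and 0.78 in pairs 1, 3 and 5 at 4 months and at 0.59, 0.86 and 1.01 in pairs 11, 13 and 15 at 10 days. All 6 pairs were positive and the age groups overlapped. The mean over all pairs was 0.79 (SE 0.08, 6 pairs), with an adjusted p of 0.0357 in limma. The group means were 0.75 ± 0.10 at 4 months and 0.82 ± 0.21 at 10 days (SD, n = 3 each), with adjusted p-values of 0.208 and 0.156 in limma.

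Scg2 encodes secretogranin II, the precursor of secretoneurin, and its ratio varied more between pairs than that of any other measurable member. At 4 months it was at 0.31, 1.38 and 0.60 in pairs 1, 3 and 5, all positive. At 10 days it was at -1.22, -0.47 and 1.26 in pairs 11, 13 and 15, so that the sign differed within the group. The mean of all pairs was 0.31 (SE 0.29), with an adjusted p of 0.66 in limma.

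Scg3 encodes secretogranin III, which binds granule membranes and chromogranin A. It was at 0.32, 1.00 and 0.12 in pairs 1, 3 and 5 at 4 months, and at -0.46, 0.10 and 0.22 in pairs 11, 13 and 15 at 10 days. Pair 3 was the highest and pair 11 the lowest, and 5 of 6 pairs were positive. The mean was 0.22 (SE 0.14), with an adjusted p of 0.499 in limma.

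The extremes of Scg2 and Scg3 lay in pairs that were also extreme in a list of 11 cortex genes, but the pairs between them did not keep that order. Pair 3, with the highest Scg2 and Scg3, had the highest cortex median, at 0.58, and pair 11, with the lowest, had the lowest, at -0.54. Pair 1 had the second-lowest cortex median, at -0.38, with the second-highest Scg3, and pair 13 was at -0.13 with Scg2 negative. The catecholamine synthesis median was highest in pair 15, at 0.81, then 0.75 in pair 3, and lowest in pair 11, at -0.18. The part of these lists in the spread was not tested. Scg5 was lowest in pair 11, at 0.59, and highest in pair 15, at 1.01, the same extremes as the catecholamine synthesis median. In pair 3 it was at 0.64. Pcsk1 was highest in pair 1, at 1.01, and lowest in pair 15, at 0.40, with 0.69 in pair 3 and 0.59 in pair 11.

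Chga and Chgb encode chromogranins A and B, the most abundant soluble proteins of chromaffin granules. As deposited, Chga was exactly 0 on 7 of 12 arrays and Chgb on 8 of 12, and neither was negative on any array. On the 6 arrays stored at full precision, those with the transgenic sample in Cy3, the deposited ratios resolve into pairs of whole numbers, known up to a common factor. In the 3 arrays of Chga and the 3 of Chgb with unequal numbers, the larger number was always the numerator. It was either 65535, the largest value of a 16-bit scanner, or a whole-number fraction of 65535. Where it was a fraction, both numbers were scaled up to make the numerator 65535, which assumes a numerator at the limit.

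With this scaling, the denominators for Chga were 44500 in pair 3, 65044 in pair 13 and 62459 in pair 15. For Chgb they were 36245 in pair 3, 43740 in pair 5 and 56255 in pair 11. The ratios, which do not depend on the scaling, were 1.47, 1.01 and 1.05 for Chga and 1.81, 1.50 and 1.16 for Chgb before any dye correction. Each is a lower bound if the numerator is capped. The dye trend at that brightness was large too, at 0.85 for Chga and 0.83 for Chgb on the log2 scale on the array of pair 3. With equal numbers both channels read the same, and an exact 0 there carries no measurement of the difference. The trend-corrected means, -0.17 for Chga and -0.10 for Chgb, are then mostly the correction itself, and no fold is given for either gene.

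**Figure D2:**
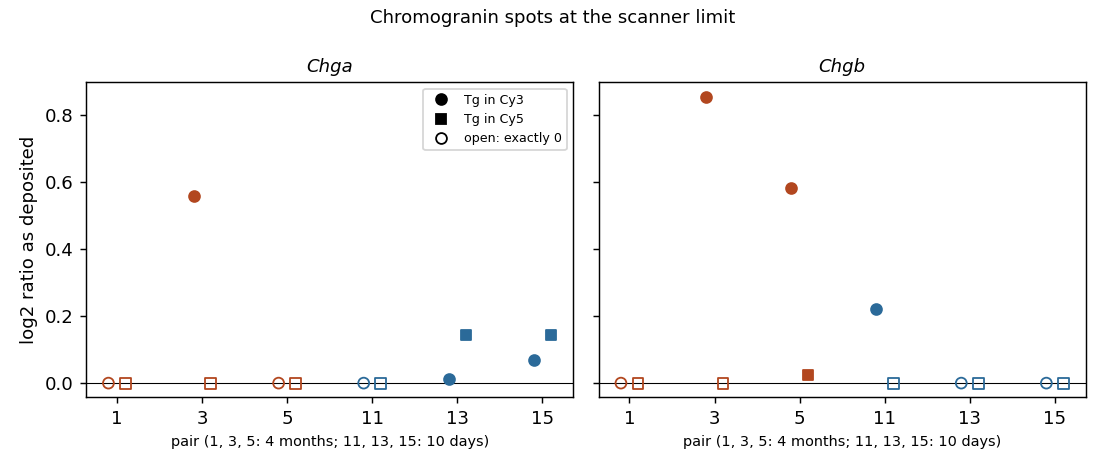
Log2 ratio as deposited for Chga and Chgb on each of the 12 arrays, by pair; circles are arrays with the transgenic sample in Cy3, squares arrays with it in Cy5, and open symbols are values of exactly 0. Chga is exactly 0 on 7 arrays and Chgb on 8, and the highest values, 0.56 and 0.85, come from the same array of pair 3.

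Of the processing enzymes, Pcsk1 encodes the convertase of the early granule. It was at 1.01, 0.69 and 0.71 in pairs 1, 3 and 5 at 4 months, and at 0.59, 0.59 and 0.40 in pairs 11, 13 and 15 at 10 days. Every pair was positive, and every 4-month pair lay above every 10-day pair, a separation that 5.08% of features showed. The mean was 0.67 (SE 0.08, 6 pairs), with an adjusted p of 0.0489 in limma. Means by age were 0.80 ± 0.18 at 4 months and 0.53 ± 0.11 at 10 days (SD, n = 3 each). The 4-month minus 10-day difference was 0.27 (SE 0.15, 95% interval -0.08 to 0.62), with an adjusted p of 0.934 in limma, so the groups were not shown to differ.

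Pcsk1n, the inhibitor gene, was positive in 6 of 6 pairs but uneven. It was at 0.19, 0.07 and 1.07 in pairs 1, 3 and 5 at 4 months, and at 0.72, 0.74 and 1.16 in pairs 11, 13 and 15 at 10 days. The highest value in each age group came from its female pair, and each group held only 1 such pair. The mean was 0.66 (SE 0.14), with an adjusted p of 0.104 in limma.

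Resp18, a small protein of endocrine secretory cells, was at 0.66, 1.02 and 0.06 in pairs 1, 3 and 5 at 4 months, and at 0.56, 0.47 and 0.42 in pairs 11, 13 and 15 at 10 days. The 4-month pairs lay on both sides of the 10-day pairs, with an SD of 0.49 at 4 months and 0.07 at 10 days. The mean was 0.53 (SE 0.12), with an adjusted p of 0.113 in limma. Pcsk1n and Resp18 ran in opposite order at 4 months, where pair 5 had the highest Pcsk1n and the lowest Resp18.

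Dye-exchanged arrays of the same pair show how far a single value can be trusted. Scg5 differed least, by 0.11 on average and at most 0.28 between the 2 arrays of a pair. Pcsk1 differed by 0.27 on average, and by 0.64 in pair 1, where it was at 1.33 with the transgenic sample in Cy5 and 0.69 with it in Cy3. The dye trend removed from Pcsk1 on these 2 arrays was 1.15 and -0.31. Across pairs, the trend removed from Pcsk1 ran from 0.54 (pair 13) to 1.15 (pair 1) with the transgenic sample in Cy5. With it in Cy3 the trend ran from -0.49 (pair 15) to 0.01 (pair 3). The Pcsk1 probe had the lowest signal of the measurable members, at 464. Scg3 was lower with the transgenic sample in Cy5 in 6 of 6 pairs, by 0.30 to 0.91. Averaged over pairs, Scg3 was at -0.03 with the transgenic sample in Cy5 and 0.46 with it in Cy3. Resp18 differed most, by 0.61 on average and by 1.05 in pair 1. It was positive on every array only after the correction, with a lowest value of 0.04, in pair 13 with the transgenic sample in Cy5. Pcsk1n changed sign between the arrays of pairs 1 and 3, Scg2 between those of pair 1, and Scg3 between those of pairs 1, 5 and 13. Over all 6 measurable members 60 of 72 array values were positive. The labels give all arrays of the same dye orientation the same description date, so dye and date cannot be told apart.

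**Figure D3:**
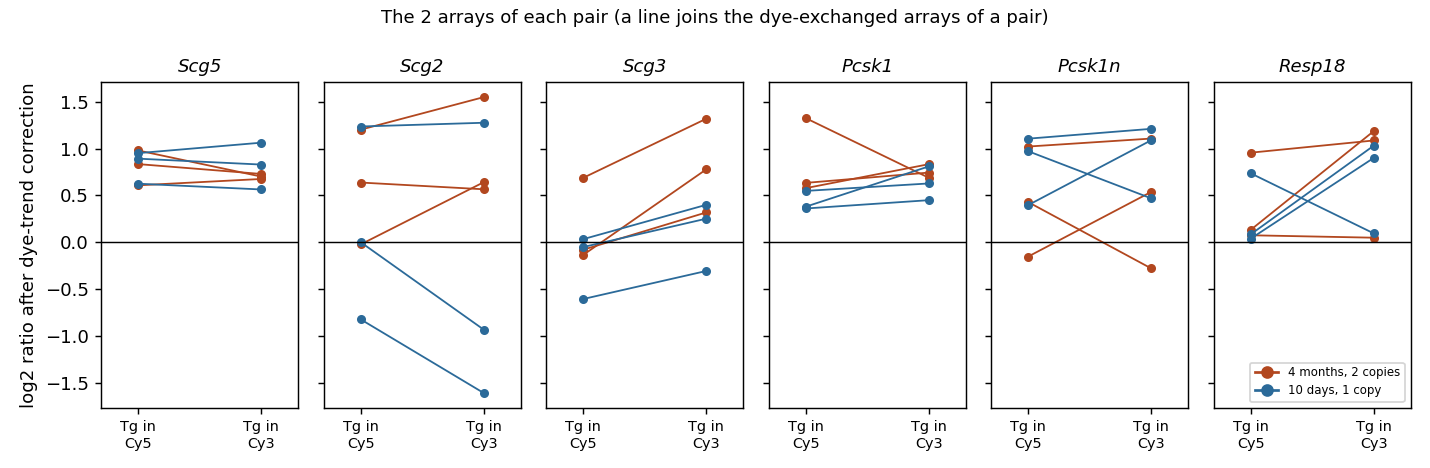
Log2 ratio after dye-trend correction on the array with the transgenic sample (Tg) in Cy5 and on that with it in Cy3, for the 6 measurable members. A line joins the arrays of a pair, red for 4 months with 2 copies and blue for 10 days with 1 copy. The lines of Scg5 are nearly flat, and those of Scg3 all run the same way.

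At 4 months with 2 copies, all 6 measurable members were positive in 3 of 3 pairs, which held for 17.9% of features. Their median was 0.67, against -0.01 for all features. Some of these pair values average 2 arrays of opposite sign, namely Scg2 in pair 1, Scg3 in pairs 1 and 5, and Pcsk1n in pairs 1 and 3. No member passed in limma, and 0.00% of all features did in either direction, with 12.3% at an unadjusted p under 0.05. By that looser measure 4 of the 6 were positive, against 6.09% of features, namely Scg5 (0.75), Pcsk1 (0.80), Resp18 (0.58) and Scg3 (0.48). The last 2 of these depended on pair 3. Without it Scg3 was at 0.22 and Resp18 at 0.36, and with the transgenic sample in Cy5 alone Scg3 was at 0.16. In limma the adjusted p was lowest for Scg5 and Pcsk1, at 0.208, and highest for Scg2, at 0.486.

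At 10 days with 1 copy, 4 of the 6 were positive in 3 of 3 pairs, against 15.9% of features, and the other two, Scg2 and Scg3, had means of -0.14 ± 1.27 and -0.05 ± 0.36 (SD, n = 3). The median was 0.50. No member and 0.00% of features passed in limma, with 8.35% at an unadjusted p under 0.05. Scg5 (0.82), Pcsk1 (0.53), Pcsk1n (0.87 ± 0.25, SD, n = 3) and Resp18 (0.48) were positive below that looser limit, as were 4.26% of features. In limma the adjusted p was lowest for Scg5, at 0.156, and highest for Scg3, at 0.975.

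The 4-month minus 10-day difference passed for no member and for 0.00% of features in limma, and 4.57% of features, 2.18% with a positive difference, but no member had an unadjusted p under 0.05. It was 0.91 for Scg2 (95% interval -0.45 to 2.26), 0.53 for Scg3 (-0.10 to 1.16) and 0.10 for Resp18 (-0.45 to 0.65). It was -0.07 for Scg5 (-0.43 to 0.30) and -0.43 for Pcsk1n (-1.07 to 0.21). Single pairs moved these differences by over 1.5 times. Scg2 was at 0.37 without pair 11, 0.60 without pair 3 and 1.61 without pair 15, and Scg3 at 0.27 without pair 3 and 0.32 without pair 11. Pcsk1n was at -0.25 without pair 3 and -0.74 without pair 5, and Pcsk1 at 0.17 without pair 1. The intervals of Scg2, Scg3 and Pcsk1n reach beyond 1 in size, and those of Pcsk1 and Scg5 are the narrowest of the 6.

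A further list held 35 genes of granules and peptide processing, Scg5 and Pcsk1 not among them, and 34 were tested. Its median was 0.03, against 0.59 for the 6 members and -0.01 for all features. Of the 34, 18 were positive and 16 negative, against 10138 positive of 21512 features. At an unadjusted p under 0.05, 8 were positive and 3 negative, against 7.51% of features for positive ratios and 1609 of 21512 for negative ratios. In limma 1 passed, against 0.0511% of features, the neuropeptide gene Gal at 1.20 (SE 0.12, adjusted p = 0.0357). The next 3 by p did not pass. They were Vip, a neuropeptide gene, at -0.57 (SE 0.07, negative in 6 of 6 pairs), Cyb561, the granule membrane cytochrome gene, at 0.83 (SE 0.12), and Ptprn, a granule membrane phosphatase-like gene, at 0.66 (SE 0.09), with adjusted p-values in limma of 0.0633, 0.0655 and 0.0655. Of the convertases of other compartments none passed in limma or had an unadjusted p under 0.05, with Furin at 0.01, Pcsk4 at -0.04, Pcsk6 at -0.02 and Pcsk7 at 0.00. Pcsk5, at 0.22 (SE 0.13), was as large as the member Scg3. Of the peptide-finishing enzymes, Pam was at 0.14 (SE 0.08). Cpe had a mean of 0.00 (SE 0.22) over pairs that ran from -0.99 in pair 11 to 0.95 in pair 3, and its arrays averaged -0.38 with the transgenic sample in Cy5 and 0.37 with it in Cy3. At 4 months and 10 days, 0 genes of the list passed in limma.

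Of 6 catecholamine synthesis genes 5 were positive, 2 of them at an unadjusted p under 0.05, and 0 passed in limma over all pairs. The background shares are those given for the granule list. The leading genes were Pnmt, the adrenaline-forming enzyme gene, at 1.15 (SE 0.15, adjusted p = 0.0655) and Th at 0.79 (SE 0.17, adjusted p = 0.104). Of 10 chromaffin identity genes 9 were positive, 2 of them at an unadjusted p under 0.05, with a median of 0.10, and 0 passed in limma. The sympathetic neuron list (7 genes) had a median of -0.02 and the Schwann cell and glia list (5 genes) of -0.07, with 0 past the threshold in each.

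Markers of other tissues also had ratios away from 0, and their part in the members' values was not tested. Over all pairs the macrophage list was positive for 0 of 9 genes, with a median of -0.35. Of these, 5 genes were negative at an unadjusted p under 0.05, as were 1609 of 21512 features. At 4 months the macrophage median was -0.81, with 6 of 9 genes negative at that level, against 1338 of 21512 features. At 10 days the macrophage median was 0.06, with 6 of 9 genes positive, against 10446 of 21512 features. Over all pairs 8 of 10 lymphocyte genes (median -0.36) and 7 of 11 cortex genes (median -0.10) were negative. By age, 5 of 11 cortex genes were negative at 4 months and 10 of 11 at 10 days, against 11179 and 11066 of 21512 features. Positive were 13 of 14 hepatocyte genes (median 0.39) and 6 of 9 adipocyte genes (median 0.08). Of all 21512 features, 11374 were negative and 10138 positive. At an unadjusted p under 0.05, 3 hepatocyte genes were positive, against 7.51% of features. No gene of these lists passed in limma. Single pairs also stood apart. In pair 3 the lymphocyte median was -1.71 and the macrophage median -1.38, with Marco, a macrophage receptor gene, at -6.25. In pair 11 the hepatocyte median was 1.42, with 14 of 14 genes positive, and in pair 15 the adipocyte median was 1.63, with 9 of 9 positive. Without pairs 3, 11 and 15, Scg5 was at 0.83 (SE 0.10) and Pcsk1 at 0.77 (SE 0.12), with adjusted p = 0.269 for both in limma and 0 features called. These are plain means of pairs 1, 5 and 13, of which only pair 13 was at 10 days. They are not averages of the group means and do not compare directly with the values over all pairs.

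**Figure D4:**
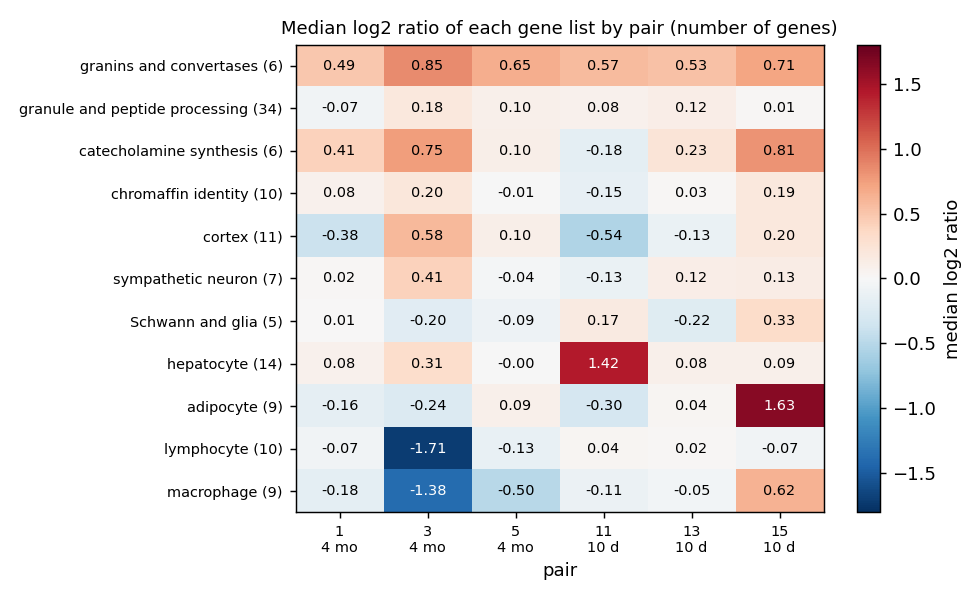
Median log2 ratio of each gene list (rows, number of genes in parentheses) in each pair (columns, 4-month pairs 1, 3 and 5 left of 10-day pairs 11, 13 and 15); red is positive and blue negative. The row of granins and convertases runs from 0.49 to 0.85, while the hepatocyte, adipocyte, lymphocyte and macrophage rows each have a pair that stands apart.

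The genes with pair values closest to those of Scg5, by root mean square difference over 6 pairs among 17039 other named genes, were Stac (0.17), the neuropeptide Y receptor gene Npy2r (0.21), the potassium channel gene Kcnc4 (0.21), Srl (0.23) and Samt3 (0.24). The closest to Pcsk1 were the neurotensin gene Nts (0.15), 2900078E11Rik (0.16), Gpr176 (0.16), Iqcg (0.18) and the acetylcholine receptor gene Chrna1 (0.20). These are similar mean levels of the ratio more than similar orders of pairs for Scg5. As a description, Pearson's r with Scg5 over the 6 pairs ranged from -0.67 for Samt3 to 0.81 for Stac, and with Pcsk1 from 0.59 for Iqcg to 0.88 for Gpr176. Every pair value of Stac lay between 0.41 and 0.86.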

How the data were processed

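The authors deposited log2 ratios of the 2 channels for 25344 spots on each of 12 arrays. Scanner, normalization and background steps: not given in the sources used here. These deposited log2 values were not centred, with array medians between 0.74 and 1.50 where Cy5 held the transgenic sample and between -0.68 and -0.22 where Cy3 did, and 4.30% to 6.59% of spots were empty. Each array was corrected by loess (span 0.3) against spot signal, which was recovered from the whole-number ratios of the 6 full-precision arrays (100% of spots, relative tolerance 1e-13) as the 75th percentile of the geometric mean. Pairs of numbers whose larger member was one of a few set fractions of 65535 were first scaled up to 65535. A spot of at least 32768 counted as near the limit of 65535.

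Probes with a single gene in the platform table were named by current RefSeq symbol and averaged per gene, and both arrays of a pair were averaged. Values of the 6 pairs entered limma 3.58.1 (R 4.3.3) with a mean per group for 21512 features with at least 2 pairs per group. Tests were two-sided, with Benjamini-Hochberg adjustment over all features and a threshold of 0.05, and the code was tested on simulated data. Motif counts and figures were made in Python 3.11.15. All members were named in each contrast. From the further gene lists the 4 genes of smallest p were to be named. The other convertases, Cpe, Pam and Marco were named after their values were seen. The members and lists were chosen with earlier results of these data known. Precision is limited by the number of arrays; no background signal was available.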

Additional observations from a re-analysis of the deposited data

How the results depend on the processing

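Scg5 and Pcsk1 were positive over all 6 pairs under each of 16 alternatives, from 0.66 to 0.84 and from 0.61 to 0.77, with adjusted p-values in limma from 0.00348 to 0.269 and from 0.00823 to 0.27. The count of 2 members past the threshold became 0 with arrays centred on their median, with sex in the model, in the ordinary linear model and without pairs 3, 11 and 15 together, an alternative chosen after seeing the data, and was 0 to 0 without each pair in turn. It stayed at 2 with a loess span of 0.5, on features measured on all 12 arrays, without probes near the limit and with the brightest probe of each gene, and was 3 on arrays of either dye alone. Over all features, 11 positive and 1 negative passed in the report, against 0 with median centring, with sex in the model and without pairs 1, 3, 13 or 15, 1 positive and 3 negative without pair 11, and 9 positive and 4 negative without pair 5, none of them a member. Arrays of 1 dye hold the dye effects of each probe, and with the transgenic sample in Cy3 682 positive and 723 negative features passed, with it in Cy5 1610 and 1831. Those settings also gave 2 members at 4 months with either dye and 1 at 10 days with Cy5, against 0 in the report. Directions turned for Scg2 over all pairs without pair 15 (-0.04, with a range of -0.0403 to 0.579 without each pair), at 10 days without pair 11 (0.39) or 13 (0.02; range -0.843 to 0.39) and with Cy5 alone (0.14). They turned for Scg3 over all pairs with Cy5 alone (-0.0256), and at 10 days without pair 11 (0.16; range -0.179 to 0.16) and with Cy3 alone (0.11). The age difference of Scg5 turned with median centring (0.00359) and without pair 15 (0.027; range -0.18 to 0.027), and that of Resp18 without pair 3 (-0.12; range -0.12 to 0.36). The cause was not tested. Of 366 member values under alternatives 329 kept direction and side of the threshold. No paired analysis was possible because the age groups share no replicate numbers, and each transgenic mouse is already set against its littermate on the array.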
